A study of Mus musculus with 30 samples.

Results

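The CXC chemokines are small secreted proteins that draw leukocytes toward inflamed tissue, and 6 of their genes were followed here in microglia, the macrophages that reside in brain and spinal cord, sorted from mice: Cxcl1, Cxcl2, Cxcl9, Cxcl10, Cxcl13 and Cxcl16. They were chosen by symbol from the 46078 genes of the count table, by a rule that uses no measured value but was set with earlier results of these data known, and 6 of 6 were found there. Of these, 5 passed the filter on low counts and were tested. RNA came from 30 libraries of C57BL/6 mice in 8 groups. Mice lacking Atg7, an enzyme of autophagy, in Cx3cr1-expressing cells (KO, Atg7fl/fl Cx3cr1CreERT) gave 4 naive libraries, 4 at day 21 of experimental autoimmune encephalomyelitis (EAE) and 4 at day 35. Old mice, labelled wild type for Atg7, gave 4 naive libraries and 3 at day 35. Young wild-type mice (WT, Atg7wt/wt Cx3cr1CreERT2) gave 4 naive libraries, 3 at day 21 and 4 at day 35. EAE is an induced autoimmune inflammation of the central nervous system, raised here with recombinant mouse myelin oligodendrocyte glycoprotein (residues 1 to 125) and pertussis toxin. Tamoxifen, which activates the Cre recombinase, was given to KO and WT mice as 3 doses of 4 mg at intervals of 48 h, at least 18 days before EAE. For age the labels say young or old, with no number, and they do not say whether the old mice carried Cre or received tamoxifen. Cx3cr1 also drives Cre in macrophages and monocytes other than microglia, and the sort took live CD11b+ CD45int Ly6G− cells, eYFP+ cells or both, pooled from females and males. Whether libraries of a group came from separate mice is not stated, so p-values measure the spread between these libraries, which may be partly technical. The authors' library names hold 1 or 2 numbers, which may stand for animals. They hold 1 in every naive old library and 2 in every naive WT library.

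Each chemokine acts through its own receptors. Cxcl9 and Cxcl10 are induced by interferons and attract activated T cells and NK cells through Cxcr3. Cxcl13 attracts B cells and follicular helper T cells through Cxcr5. Cxcl16 is made as a transmembrane protein that binds Cxcr6 on T cells, takes up oxidised lipoprotein, and is released as a soluble chemokine by the protease Adam10. Cxcl1 and Cxcl2 attract neutrophils through Cxcr2 and are classical targets of NF-kappaB.

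On build GRCm38, 5 of the 6 genes lie on chromosome 5. Cxcl1 (ENSMUSG00000029380, plus strand) spans bases 90891241 to 90893115 and Cxcl2 (ENSMUSG00000058427, plus strand) 90903871 to 90905938. Cxcl9 (ENSMUSG00000029417, minus strand) spans 92321347 to 92328079, Cxcl10 (ENSMUSG00000034855, minus strand) 92346638 to 92348889 and Cxcl13 (ENSMUSG00000023078, plus strand) 95956951 to 95961068. Cxcl16 (ENSMUSG00000018920, minus strand) lies on chromosome 11, bases 70453983 to 70459984. The promoters of 4 tested genes are shown, from 250 bases before to 50 after the start in RefSeq (GRCm38.p6). They are shown since NF-kappaB and interferon-activated factors act on promoters of this family. Cxcl16, also tested, had no entry in the promoter set used. Capitals mark matches to the interferon-stimulated response element (ISRE, a pair of GAAA runs with any 2 bases between them) and to the kappaB motif, on either strand.
Cxcl2 (chr5:90903649-90903948, plus strand): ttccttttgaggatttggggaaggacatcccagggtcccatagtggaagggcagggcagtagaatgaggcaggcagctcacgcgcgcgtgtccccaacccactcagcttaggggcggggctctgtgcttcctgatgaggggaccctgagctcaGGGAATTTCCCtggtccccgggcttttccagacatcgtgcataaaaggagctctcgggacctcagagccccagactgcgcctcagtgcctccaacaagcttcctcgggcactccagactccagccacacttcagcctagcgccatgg
Cxcl9 (chr5:92328030-92328329, minus strand): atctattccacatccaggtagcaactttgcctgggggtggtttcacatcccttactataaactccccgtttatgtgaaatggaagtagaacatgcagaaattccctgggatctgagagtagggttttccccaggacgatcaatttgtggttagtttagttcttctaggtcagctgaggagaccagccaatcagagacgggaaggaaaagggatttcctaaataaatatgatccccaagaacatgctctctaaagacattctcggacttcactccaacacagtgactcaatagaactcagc
Cxcl10 (chr5:92348840-92349139, minus strand): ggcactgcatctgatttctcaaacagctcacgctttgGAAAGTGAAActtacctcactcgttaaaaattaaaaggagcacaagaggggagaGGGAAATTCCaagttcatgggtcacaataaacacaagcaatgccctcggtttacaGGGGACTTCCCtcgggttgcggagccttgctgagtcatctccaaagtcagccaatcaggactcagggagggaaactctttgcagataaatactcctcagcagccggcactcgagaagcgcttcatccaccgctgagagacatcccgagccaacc
Cxcl13 (chr5:95956689-95956988, plus strand): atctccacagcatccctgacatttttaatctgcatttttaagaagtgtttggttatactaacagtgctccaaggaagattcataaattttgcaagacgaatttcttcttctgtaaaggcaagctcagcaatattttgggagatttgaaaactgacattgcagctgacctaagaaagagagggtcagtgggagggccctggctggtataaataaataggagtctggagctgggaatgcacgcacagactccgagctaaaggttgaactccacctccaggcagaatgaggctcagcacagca

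The Cxcl2 window held 1 kappaB run, read on both strands, whose first base lies 97 bases before the start. The Cxcl1 window held the same run at 71 bases before the start. The Cxcl10 window held an ISRE match at 213 bases before the start and kappaB matches at 159 and, nearer the start, an overlapping pair. Neither motif was found in the windows of Cxcl9 and Cxcl13. TATAAA was found in the Cxcl9 window at 195 bases and in the Cxcl13 window at 46 bases before the start, and the interferon gamma site TTCNNNGAA was in none of the 5 windows searched. Over 32851 mouse promoter windows of this length, 3.44% held the ISRE motif, 8.46% the kappaB motif, 13.6% TATAAA and 8.3% TTCNNNGAA. A match is a description of the letters, not evidence of binding.

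Libraries held 4712803 to 11034565 counts. Levels are in CPM (counts scaled to library size with TMM factors). Atg7, the targeted gene, had means of 20.2 ± 8.62 in naive KO against 31.6 ± 6.32 in naive WT, but 32.8 ± 2.73 in day 21 KO and 23.2 ± 3.02 in day 21 WT, and 32.5 ± 1.54 in day 35 KO and 22.5 ± 1.41 in day 35 WT (SD, n = 4, or 3 for day 21 WT). The count covers the whole gene, deleted exons and others alike, so it does not check the genotype labels. One library, day 35 WT 3, is wild type by its title and KO by its knockout-status label. It was kept as WT, and results that rest on it are given with and without it. All 10 microglia markers were detected in each group. Their sum was lowest in day 21 KO (6426 to 7221 CPM) and ran from 7194 to 26428 CPM in the other groups. Marker transcripts of other leukocytes were also counted, although the gate on Ly6G− cells would remove neutrophils. The sum of 13 neutrophil markers, led by S100a9 and Ngp, reached 32223 CPM in day 35 old 1, against 691 and 2466 in the other day 35 old libraries, and 16827 in naive WT 3, against 2008 to 9398 in the other naive WT libraries. The sum of 12 monocyte markers, led by Fn1 and Chil3, was 2125 to 2914 CPM in day 21 KO and 182 to 487 in day 21 WT.

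Levels differed widely between the chemokines. Per kilobase of the principal transcript, the median level over the 30 libraries was highest for Cxcl16 at 72.1 CPM per kb. Cxcl10 followed at 36.2, Cxcl2 at 8.77, Cxcl13 at 8.28 and Cxcl9 at 5.75 CPM per kb. Cxcl1 was close to the detection limit at 0.147 CPM per kb. In bulk RNA of a sort, fewer cells that make a transcript and less of it per cell cannot be told apart.

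**Figure D1:**
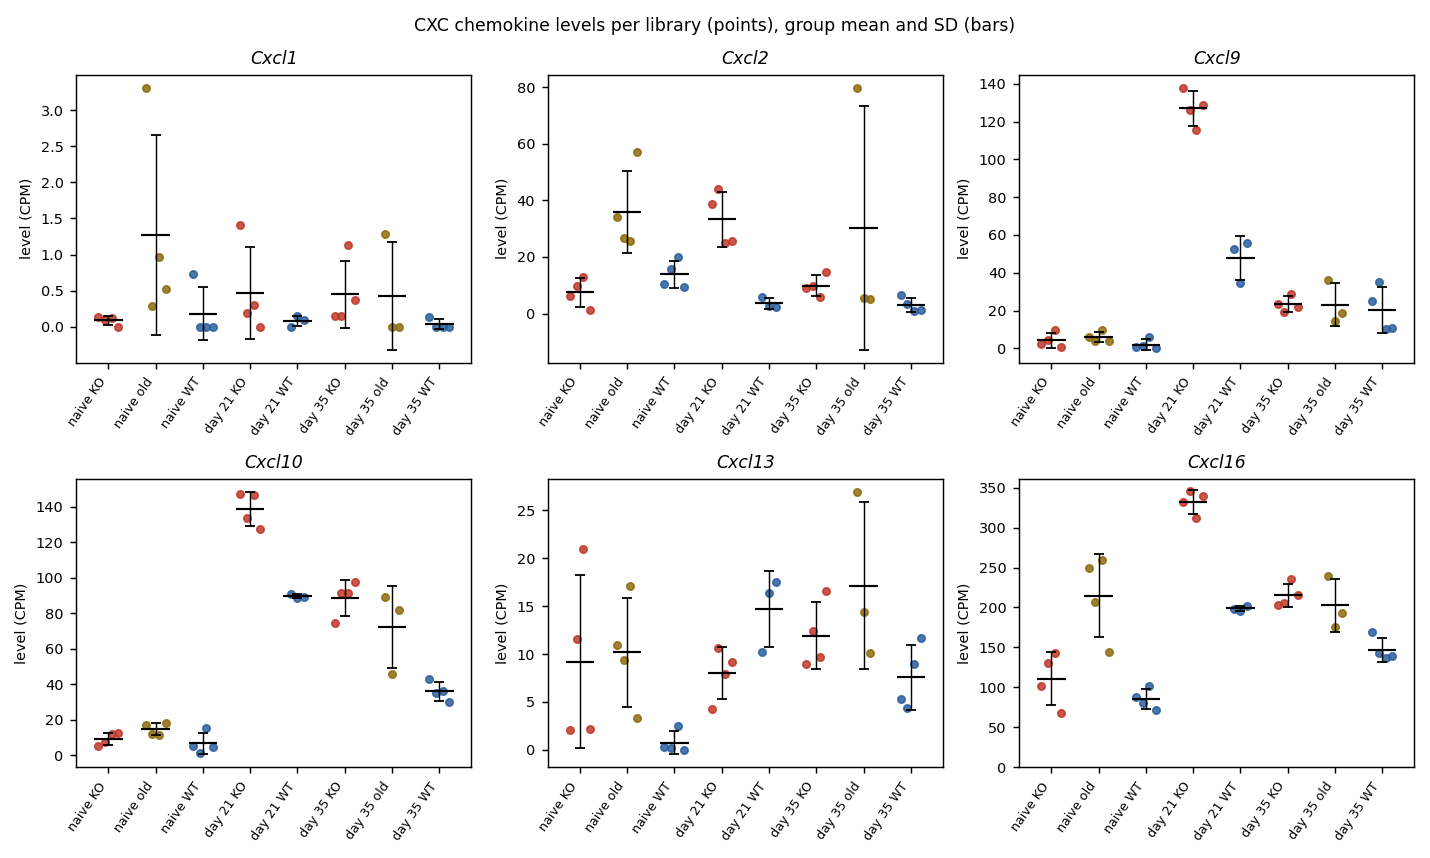
Level of each chemokine gene (y axis, CPM) in every library (points) by group (x axis), with the group mean and SD as bars. Cxcl9, Cxcl10 and Cxcl16 peak in day 21 KO, Cxcl13 is lowest in naive WT, and 1 day 35 old library carries the highest Cxcl2 level (79.8 CPM).

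In WT at both times and in KO at day 21, 4 of these 6 genes were higher in EAE than in naive mice. A gene was called when its adjusted p in edgeR's quasi-likelihood test was under 0.05 over the 13880 genes tested. In KO, 4 of the 5 tested chemokines rose at day 21 (22.5% of all genes tested rose) and 3 at day 35 (11.6%). In old mice, 2 rose at day 35 (10.4%). In WT, 4 rose at day 21 (9.51%) and 4 at day 35 (8.4%). edgeR called none of the 5 lower in these comparisons, while DESeq2 called Cxcl2 lower in WT at day 35. Between KO and WT, 2 were higher in KO at day 21 (9.18% of genes were higher) and 1 at day 35 (1.79%). In naive KO against naive WT edgeR called 0 (0.288% of genes called either way), with 2 at an unadjusted p under 0.05 and 1 called by DESeq2. Between old and young, 2 were higher in naive old (5.03% of genes) and 1 in day 35 old (7.51%). From day 21 to day 35, 2 fell in KO (11.7% of genes fell), and edgeR called 0 in WT (0.0648% either way), with 3 at an unadjusted p under 0.05 and 1 by DESeq2. Without day 35 WT 3 the counts were again 4 for WT day 35, 1 for day 35 KO and 1 for day 35 old (2857, 453 and 1184 of 13870 genes called either way). Without naive WT 3 they were 4 for naive old (1132 of 13844 genes called) and 1 for naive KO (54 of 13844). Without day 35 old 1 the count was 0 for day 35 old. That last fit called 0 of all 14296 genes tested, so its 0 is not particular to the chemokines. The median log2 fold change (log2FC) of the 5 tested chemokines was 2.13 at day 21 and 0.96 at day 35 in KO, and 3.69 at day 21 and 2.38 at day 35 in WT. Over all genes tested, the median lay between −0.021 and 0.028 in every contrast.

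**Figure D2:**
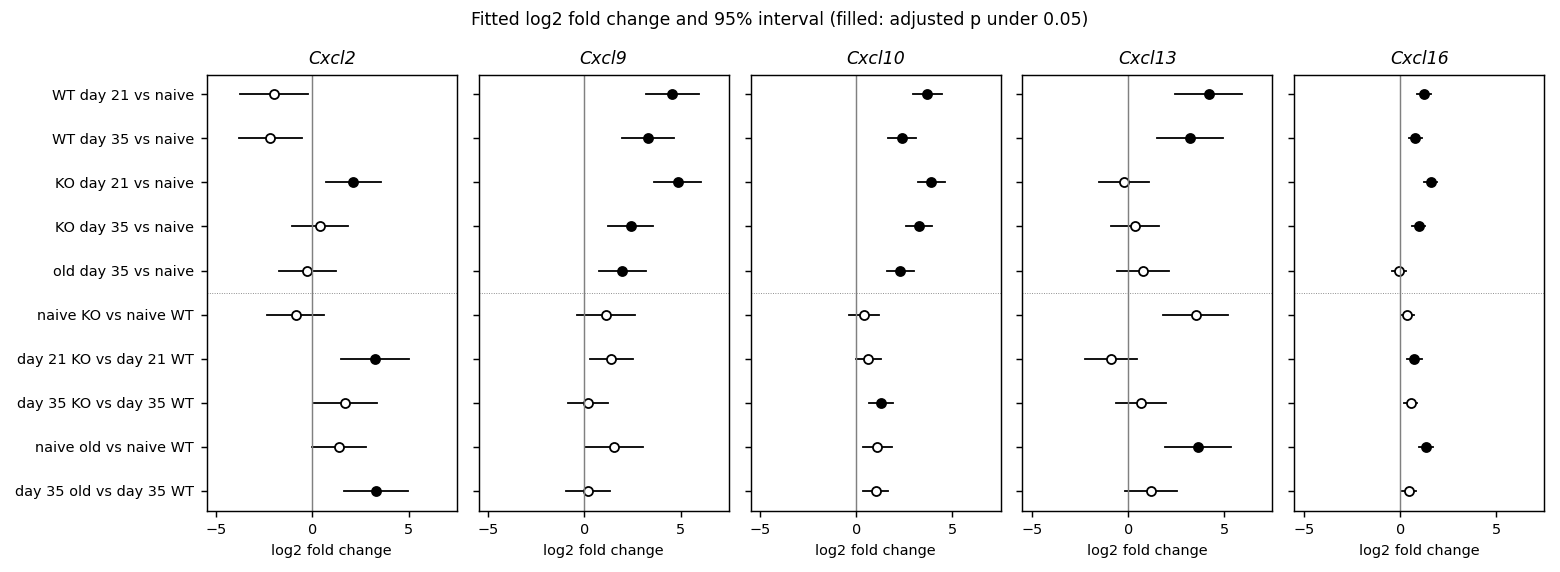
Fitted log2 fold change (x axis) with its 95% interval for the 5 tested chemokines in 10 comparisons (rows), with filled points for an adjusted p under 0.05. The EAE comparisons stand above the dotted line, and at day 21 Cxcl2 stands at 2.13 (called) in KO and at −1.99 (not called) in WT.

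Cxcl10, the interferon-induced ligand of Cxcr3, had 147.29, 133.75, 146.50 and 127.72 CPM in day 21 KO and 91.1, 88.9 and 89.1 in day 21 WT. At day 35 it had 74.4, 91.3, 91.4 and 97.9 CPM in KO, 89.2, 45.7 and 82.1 in old mice, and 43, 35, 36.2 and 30.2 in WT. Naive libraries had 5.18, 7.64, 11.8 and 12.5 CPM in KO, 17, 12.2, 11.5 and 18.2 in old mice, and 5.29, 1.41, 15.3 and 4.7 in WT. Every EAE library lay above every naive one. Cxcl10 rose with EAE in each set of mice. In KO the log2FC was 3.91 (SE 0.342, adjusted p = 3.85e-09) at day 21 and 3.26 (SE 0.337, adjusted p = 9.74e-07) at day 35. In old mice at day 35 it was 2.29 (SE 0.34, adjusted p = 0.000204). In WT it was 3.69 (SE 0.365, adjusted p = 1.79e-07) at day 21 and 2.38 (SE 0.351, adjusted p = 0.000132) at day 35. The WT values rest in part on naive WT 3, which had the highest Cxcl10 of its group. Without it they were 4.47 and 3.15, both called, and without day 35 WT 3 the day 35 value was again 2.38.

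The genotypes separated at day 35. Cxcl10 averaged 88.8 ± 10.1 CPM in day 35 KO and 36.1 ± 5.31 in day 35 WT (SD, n = 4 each), with no overlap between the groups. The log2FC was 1.30 (SE 0.303, adjusted p = 0.029). The call is close to the threshold. It was lost when any of 6 of the 8 libraries was left out (largest adjusted p = 0.0954), with no filter on low counts (adjusted p = 0.065), and with day 35 WT 3 moved to KO (adjusted p = 0.108), while the log2FC stayed between 1.12 and 1.39. Without day 35 WT 3 it was 1.30 with an adjusted p of 0.0413, within a range of 0.000135 to 0.108 over all alternatives. At day 21 KO libraries also lay above WT, but the difference did not pass the test (log2FC 0.63, 95% interval −0.03 to 1.29, adjusted p = 0.173). The fit of those 2 groups alone called it. Clinical scores at day 35 were 2.5 to 3 in KO, 2.75 to 3 in old mice and 1 to 1.5 in WT. Score and genotype or age cannot be told apart in these groups, and a link of score to Cxcl10 was not tested. Of the 13 neutrophil markers, 5 were also called higher in day 35 KO (1.79% of genes), and 0 of the 12 monocyte markers. The monocyte sum was still higher, at 966 to 1401 CPM in day 35 KO and 106 to 302 in day 35 WT. The median log2FC of the monocyte markers was 1.69. The part of these cells in the Cxcl10 result was not tested.

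Old mice had at day 35 a Cxcl10 level of 72.3 ± 23.3 CPM (n = 3), above that of day 35 WT in every library. The difference missed the threshold (log2FC 1.00, 95% interval 0.33 to 1.67, adjusted p = 0.0512). It was called by DESeq2, with RLE factors and without day 35 old 2 (log2FC 1.24, adjusted p = 0.0142). Its adjusted p reached 0.471 without day 35 old 1, where 0 of all genes tested were called. In naive old mice the log2FC against naive WT was 1.09 (adjusted p = 0.0655), and it was 1.87 and called (adjusted p = 0.000433) without naive WT 3, the library that lay within the range of the old ones. DESeq2 also called it (adjusted p = 0.0113). Over all alternatives the adjusted p of this naive comparison ran from 0.000433 to 0.276. From day 21 to day 35 the log2FC was −0.64 in KO (adjusted p = 0.111) and −1.31 in WT (adjusted p = 0.112), neither called by edgeR, with no overlap between the groups. The fit of the 2 groups alone called both, and DESeq2 called that in WT (adjusted p = 0.0179). Over the alternatives the adjusted p ran from 0.000102 to 0.232 in KO and from 0.00018 to 0.444 in WT. The Cxcl10 gene lies inside Art3 on the opposite strand, with 133 bases of shared exon. Art3 held 247 counts in all libraries together, against 11457 for Cxcl10, and whether strand was used in counting is not given in the sources used here.

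Cxcl9, the other interferon-induced Cxcr3 ligand followed here, was low without EAE and had the largest rise of the 5 at day 21. Day 21 KO had 138.02, 125.96, 115.55 and 128.75 CPM and day 21 WT 52.8, 34.6 and 55.9. At day 35 there were 23.3, 19, 29 and 21.7 CPM in KO, 36, 14.4 and 18.8 in old mice, and 25, 35.1, 10 and 10.7 in WT. Naive libraries held 2.18, 4.35, 9.91 and 0.88 CPM in KO, 6.08, 4.08, 9.52 and 4.02 in old mice, and 0.588, 1.17, 5.98 and 0.143 in WT. The day 21 libraries of both genotypes lay above all naive ones, and the day 35 groups overlapped each other.

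Against naive mice, Cxcl9 rose in KO by a log2FC of 4.85 at day 21 (SE 0.585, adjusted p = 6.84e-07) and 2.40 at day 35 (SE 0.566, adjusted p = 0.00493). In old mice at day 35 it rose by 1.97 (SE 0.594, adjusted p = 0.0249), a call lost without any of 5 of the 7 libraries and with no filter on low counts (adjusted p up to 0.0971). In WT it rose by 4.56 at day 21 (SE 0.666, adjusted p = 5.04e-05) and 3.32 at day 35 (SE 0.658, adjusted p = 0.00198). The fit of the 2 groups alone lost the WT day 35 call (adjusted p = 0.0504), the highest over its alternatives. Here too the size depended on single naive libraries. Without naive WT 3 the WT values were 6.37 and 5.13, and without naive KO 3 the KO values were 5.59 and 3.14, all called. Without day 35 WT 3 the WT day 35 value was 3.54.

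Cxcl9 fell again in KO between the EAE days, to 23.3 ± 4.22 CPM at day 35 against 127.07 ± 9.25 at day 21 (log2FC −2.45, SE 0.504, adjusted p = 0.0012, n = 4 each). In WT, day 35 averaged 20.2 ± 12.1 CPM and day 21 47.7 ± 11.5, and the difference did not pass (log2FC −1.24, adjusted p = 0.631). Whether KO and WT differed in this change was tested directly and not called (difference of log2FC −1.21, 95% interval −2.71 to 0.29, adjusted p = 0.372). In that test edgeR called 0 of the 5 chemokines (2.67% of genes), with 0 at an unadjusted p under 0.05 and 0 by DESeq2. At day 21 Cxcl9 was above WT in every KO library, and the log2FC of 1.41 (95% interval 0.31 to 2.51, adjusted p = 0.0651) missed the threshold. The fit of the 2 groups alone called it (adjusted p = 2.48e-06), and its adjusted p reached 0.223 under another alternative. At day 35 KO and old mice overlapped WT, with log2FC 0.20 and 0.18 (95% intervals −0.84 to 1.25 and −0.95 to 1.31). In naive mice the log2FC was 1.12 for KO against WT (adjusted p = 0.661) and 1.53 for old against WT (adjusted p = 0.204), both between overlapping groups. Without naive WT 3 they were 2.93 (not called) and 3.34 (called, adjusted p = 0.0217).

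Cxcl16, the transmembrane ligand of Cxcr6, had the highest median level of the 6. Day 21 KO had 332.10, 345.59, 311.63 and 339.89 CPM and day 21 WT 198.62, 196.06 and 201.31. Day 35 KO had 203.22, 205.89, 235.29 and 215.86 CPM, day 35 old 239.77, 175.85 and 193.09, and day 35 WT 168.74, 143.02, 136.05 and 139.56. Naive KO had 101.32, 130.80, 142.31 and 67.9 CPM, naive old 249.70, 206.55, 258.88 and 144.01, and naive WT 87.3, 80.2, 101.55 and 71.3. The naive old libraries lay above every naive KO and WT library, and within or near the range of the EAE groups.

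Cxcl16 rose at day 21 by a log2FC of 1.59 in KO (SE 0.17, adjusted p = 2.43e-08) and 1.22 in WT (SE 0.18, adjusted p = 2.33e-05). At day 35 it was higher than in naive mice by 0.96 in KO (SE 0.168, adjusted p = 0.000271) and 0.79 in WT (SE 0.169, adjusted p = 0.00256), and by 0.82 in WT without day 35 WT 3. In old mice the level was 202.91 ± 33.1 CPM at day 35 (n = 3) and 214.79 ± 52.4 in naive libraries (n = 4), with overlapping groups. The age by EAE difference was −0.87 on the log2 scale (95% interval −1.38 to −0.36) and was not called (adjusted p = 0.123 in edgeR). In that test edgeR called 0 of the 5 chemokines (0.0432% of genes), with 2 at an unadjusted p under 0.05 and 1 by DESeq2.

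Naive old mice had a higher Cxcl16 level than naive WT, by a log2FC of 1.34 (SE 0.17, adjusted p = 2.06e-05). Day 21 KO had a higher level than day 21 WT, by 0.74 (SE 0.181, adjusted p = 0.00511). Both calls held in every alternative run. At day 35 all KO libraries were above all WT libraries, but the log2FC of 0.55 (95% interval 0.21 to 0.90) did not pass (adjusted p = 0.0713), and was 0.52 without day 35 WT 3. DESeq2, the fit with the sequencing index as a block and the fit of the 2 groups alone called it, and its adjusted p ran from 0.0045 to 0.254. Day 35 old against day 35 WT gave 0.47 (adjusted p = 0.0991), or 0.43 without day 35 WT 3. In KO, Cxcl16 fell between day 21 and day 35 (log2FC −0.63, SE 0.166, adjusted p = 0.00679). At day 21, 9 of 10 microglia markers were called lower in KO than in WT (9.86% of genes were lower). Called higher were 6 of 12 monocyte, 5 of 9 border macrophage and 5 of 5 tested T and NK cell markers (9.18% of genes). The 10 T and NK cell markers summed to 22.6 to 26.5 CPM in day 21 KO and 1.5 to 5.69 in day 21 WT. Their part in the day 21 differences between KO and WT was not tested.

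Of the genes for the 2 proteases that shed Cxcl16, Adam10 was lower in KO at day 21 than in naive KO (log2FC −0.47, SE 0.124, adjusted p = 0.00305) and at day 35 (log2FC −0.34, SE 0.124, adjusted p = 0.0496), the second call lost without any of the 8 libraries (adjusted p up to 0.218). Adam17 was called in none of the 16 contrasts. Neither was called between KO and WT or between old and young mice. Zmynd15 shares 552 bases of exon with Cxcl16 on the opposite strand and held 2759 counts in all, against 38561 for Cxcl16. It averaged 27.3 ± 3.72 CPM in day 21 KO, 17.8 ± 2.8 in day 21 WT and 5.08 ± 2.8 in naive WT.

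Cxcl13, the B cell chemokine, had its lowest mean level in naive WT. Naive KO libraries had 2.05, 11.6, 21 and 2.2 CPM, naive old 10.9, 9.33, 17.1 and 3.32, and naive WT 0.294, 0.235, 2.54 and 0, the last from 20 counts in all. With EAE there were 4.24, 10.6, 7.96 and 9.19 CPM in day 21 KO and 10.2, 16.4 and 17.5 in day 21 WT. Day 35 KO had 8.91, 12.4, 9.72 and 16.6 CPM, day 35 old 26.9, 14.4 and 10.1, and day 35 WT 5.29, 4.41, 8.92 and 11.7. In order of mean level neighbouring groups overlapped, except that day 35 WT (lowest 4.41 CPM) lay above naive WT (highest 2.54 CPM). Naive WT did overlap naive KO, whose lowest library had 2.05 CPM.

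In WT, Cxcl13 rose by a log2FC of 4.18 at day 21 (SE 0.839, adjusted p = 0.00116) and 3.21 at day 35 (SE 0.835, adjusted p = 0.0103), and by 3.13 at day 35 without day 35 WT 3. In KO it averaged 7.99 ± 2.72 CPM at day 21 and 9.2 ± 9.03 in naive libraries (n = 4 each), with log2FC −0.22 (95% interval −1.51 to 1.07, adjusted p = 0.796). The difference between these responses was itself called at day 21 (KO minus WT −4.40 on the log2 scale, SE 1.06, adjusted p = 0.0131). Over 15 libraries left out in turn it ran from −6.55 to −3.63 and was called each time. It was −2.85 at day 35 (adjusted p = 0.169), and −2.77 without day 35 WT 3. Of the 5 tested chemokines, 2 were called in the day 21 test of this difference (9.68% of genes called either way). At day 35 edgeR called 0 (0.367%), with 2 at an unadjusted p under 0.05 and 0 by DESeq2.

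Naive old mice had a higher Cxcl13 level than naive WT (log2FC 3.63, SE 0.826, adjusted p = 0.00815), lost only in the fit of those 2 groups alone (adjusted p = 0.0534). Naive KO had a log2FC of 3.51 against naive WT (SE 0.822, 95% interval 1.80 to 5.21), but the groups overlapped and it did not pass (adjusted p = 0.0842). It was called by DESeq2 (adjusted p = 0.00116) and without naive KO 1, naive KO 4 or naive WT 3, and was 2.75 with an adjusted p of 0.369 without naive KO 3. Its adjusted p reached 0.447 over the alternatives. At day 21 the KO level was below that of WT by a log2FC of −0.89 (95% interval −2.25 to 0.47, adjusted p = 0.369), with overlapping groups, and called only by the fit of those 2 groups alone. Naive WT 3, with 17 of the 20 naive WT counts, also had the highest neutrophil marker sum of its group. Without it the log2FC was 6.32 for WT day 21, 5.36 for WT day 35 and 5.78 for naive old, all called. The summed B cell markers, led by Ighm, were 111 to 140 CPM in day 21 KO and 234 to 255 in day 21 WT, where Cd79a was at 0. Their part in the Cxcl13 results was not tested.

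**Figure D3:**
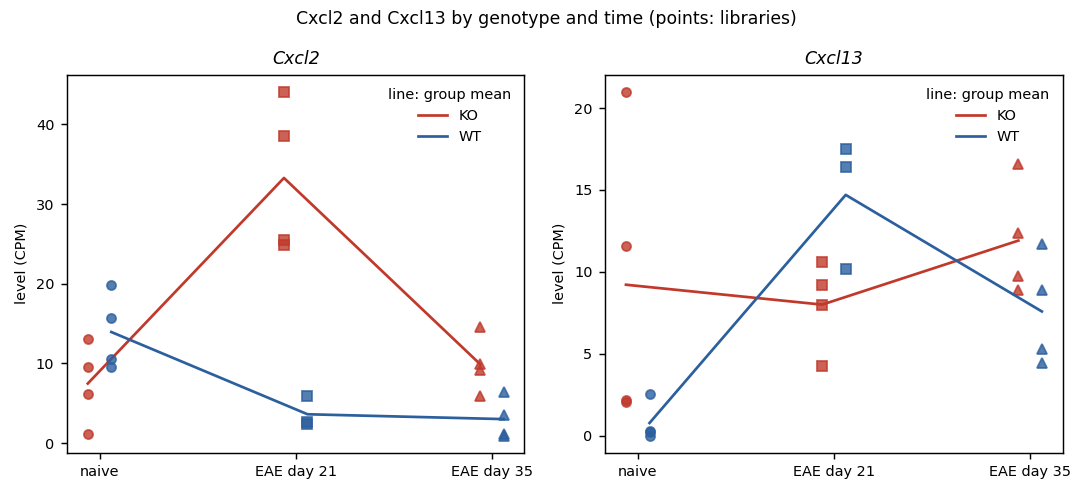
Levels of Cxcl2 and Cxcl13 (y axis, CPM) in KO and WT libraries (points) of naive mice and at days 21 and 35 of EAE (x axis), with lines through the group means. Cxcl2 peaks in day 21 KO (33.3 CPM against 3.61 in day 21 WT), whereas Cxcl13 has its lowest mean in naive WT (9.2 CPM in naive KO against 0.768).

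Cxcl2, a neutrophil attractant, responded to EAE at day 21 differently in KO and WT. Day 21 KO had 38.6, 44.1, 24.9 and 25.5 CPM and day 21 WT 5.86, 2.64 and 2.34. Day 35 KO had 9.21, 9.88, 5.91 and 14.6 CPM, day 35 old 79.8, 5.61 and 5.21, and day 35 WT 6.43, 3.5, 0.939 and 1.15. Naive KO had 6.14, 9.57, 13 and 1.17 CPM, naive old 34.1, 26.7, 25.8 and 57.1, and naive WT 10.6, 15.7, 19.9 and 9.55. The day 21 KO libraries lay above those of day 21 WT and of naive KO, and the naive old libraries above those of naive WT.

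Cxcl2 was higher in day 21 KO than in day 21 WT by a log2FC of 3.25 (SE 0.855, adjusted p = 0.0105). That call was lost without day 21 WT 2 (log2FC 3.09, adjusted p = 0.0546) or day 21 WT 3 (log2FC 2.98, adjusted p = 0.0686), which left 2 WT libraries, within a range of adjusted p of 2.25e-05 to 0.0686. In KO it rose at day 21 against naive mice (log2FC 2.13, SE 0.698, adjusted p = 0.0162), a call that held in every alternative. In WT the log2FC was −1.99 at day 21 (adjusted p = 0.0983) and −2.19 at day 35 (adjusted p = 0.0548), neither of them called by edgeR, with no overlap between the groups. The 2 groups alone called the day 21 value (adjusted p = 0.00695, the lowest of a range up to 0.257). DESeq2, the index block, the 2 groups alone and the fit without day 35 WT 1 called the day 35 value (adjusted p from 0.0164 to 0.136). The difference of the day 21 responses, KO minus WT, was 4.12 (SE 1.1, adjusted p = 0.0233), lost without naive WT 3, day 21 WT 2 or day 21 WT 3 (adjusted p up to 0.0813). At day 35 that difference was 2.58 (adjusted p = 0.214), and 2.30 without day 35 WT 3. Day 35 KO against day 35 WT gave 1.71 (95% interval 0.07 to 3.35, adjusted p = 0.24), 1.42 without day 35 WT 3 and 2.41 without day 35 WT 1, and day 35 against day 21 in KO gave −1.74 (adjusted p = 0.067), called by the 2 groups alone and with day 35 WT 3 moved to KO (adjusted p from 0.000805 to 0.157).

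The day 35 age difference in Cxcl2 rested on 1 library. There the log2FC of old against WT was 3.30 (SE 0.808, adjusted p = 0.0156), but the groups overlapped. Without day 35 old 1 it was 0.83 (adjusted p = 0.723), and the fit of the 2 groups alone did not call it (adjusted p = 0.379). Neither of these fits called any gene in this contrast (0 of 14296 and 0 of 12376), against 1312 of 13880 in the main fit. Without day 35 WT 3 the log2FC of Cxcl2 was 3.01 and called, and without day 35 WT 1 it was 3.99. The library day 35 old 1 had the highest neutrophil marker sum of all libraries. In day 35 old, 12 of 13 neutrophil and 8 of 12 monocyte markers were called higher than in WT (7.51% of genes). These marker calls also rest on day 35 old 1, since 0 genes were called without it. Its monocyte sum was 4906 CPM, against 481 and 657 in the other day 35 old libraries. In naive mice the old libraries lay above WT, and the log2FC of 1.37 did not pass (95% interval −0.03 to 2.78, adjusted p = 0.227). The sum of neutrophil markers was 7474 to 14244 CPM in naive old and 2008 to 16827 in naive WT.

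Summed markers of monocytes and of neutrophils did not run alike beside Cxcl2. In day 21 KO the neutrophil sum was 482 to 606 CPM, below the 699 to 725 of day 21 WT and the 644 to 3073 of naive KO. The sum follows its most abundant genes. Over the 13 neutrophil markers the median log2FC of day 21 KO against WT was 1.93, with 1 called lower and 0 higher (9.86% and 9.18% of genes). The higher Cxcl2 in day 21 KO than in WT thus stood beside a lower neutrophil sum but a higher median marker. The monocyte sum was higher in all 4 day 21 KO libraries than in the 3 of WT. In WT, 12 of 13 neutrophil markers and 6 of 12 monocyte markers were called lower at day 21 than in naive mice (12% of genes). The other neutrophil marker was called higher (9.51% of genes), and the median log2FC of the 13 was −8.57. The neutrophil sums of the day 21 groups may thus rest on few of the markers. Whether they follow neutrophils there was not tested. The numbers called were the same at day 35 (10.7% of genes lower and 8.4% higher). The library with the lowest naive KO level of Cxcl2, naive KO 4, had the lowest monocyte sum of all libraries, at 32.4 CPM. The part of these cells in the Cxcl2 results was not tested.

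**Figure D4:**
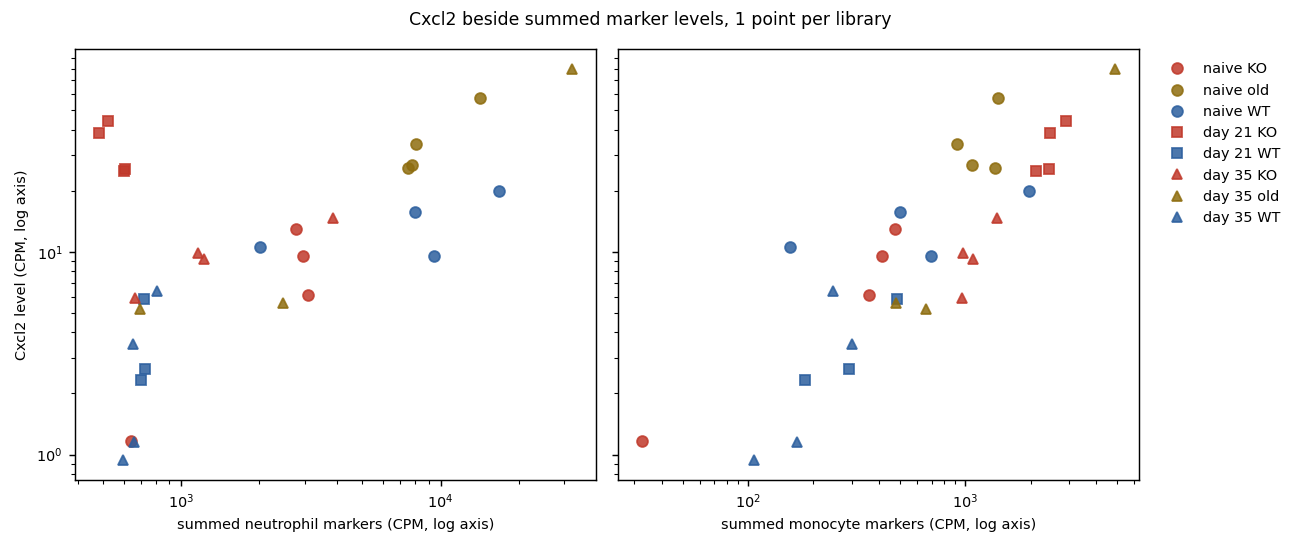
Cxcl2 level (y axis, CPM, log axis) against the summed CPM of 13 neutrophil markers (left, log axis) and 12 monocyte markers (right, log axis), with 1 point per library, colour for KO, old or WT and shape for naive, day 21 or day 35. The 4 day 21 KO libraries lie at 482 to 606 CPM of neutrophil markers and at 2125 to 2914 CPM of monocyte markers, and day 35 old 1 is highest on each axis.

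Cxcl1, which attracts neutrophils through the same receptor, was barely detected and was left out by the filter. It had 78 counts in all, with 11 of 30 libraries at 0. The 4 naive old libraries had 24, 2, 5 and 3 counts, and the other groups between 0 and 9 per library. With no filter, edgeR called it in 0 of 16 contrasts (lowest adjusted p = 0.245), with 3 at an unadjusted p under 0.05. A difference between the groups was not detectable at this depth.

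Transcripts of the receptors were also present in these sorted cells. Of 8 receptor genes, 5 were tested. Cxcr4, the receptor of Cxcl12, averaged 54.5 ± 6.02 CPM in day 21 KO (n = 4) and 13.9 ± 2.16 in day 21 WT (n = 3), and 37.1 ± 4.13 in day 35 KO and 7.36 ± 3.63 in day 35 WT (n = 4 each). It was higher in KO at both times (log2FC 1.98, SE 0.589, adjusted p = 0.0211 and log2FC 2.33, SE 0.563, adjusted p = 0.0332). The day 21 call was lost without any 1 of the 3 WT libraries (adjusted p up to 0.0992), and the day 35 call without any 1 of the 8 libraries and with day 35 WT 3 moved to KO (adjusted p up to 0.139), with the log2FC at 1.86 or more. Cxcr6, the receptor of Cxcl16, was low everywhere, with 1.73, 1.67, 3.31 and 5.04 CPM in day 21 KO and 0.335, 0 and 0.187 in day 21 WT (log2FC 3.98, SE 0.911, adjusted p = 0.0029). Ackr3, a scavenging receptor, was lower in day 21 KO (log2FC −1.90, SE 0.667, adjusted p = 0.0445), a call lost without any of 6 of the 7 libraries (adjusted p up to 0.165). Cxcr2, the neutrophil receptor of Cxcl1 and Cxcl2, had 94.8, 16.1 and 0.289 CPM in day 35 old and 0.286, 1.07, 0.157 and 0.577 in day 35 WT, a called difference (log2FC 6.09, SE 1.2, adjusted p = 0.0101) between overlapping groups that was lost without day 35 old 1 (log2FC 3.97, adjusted p = 0.358). In WT it fell to 0.477 ± 0.189 CPM at day 21, against 53.7 ± 31.9 in naive libraries (log2FC −6.79, SE 1.32, adjusted p = 0.000948). Cxcr3, the receptor of Cxcl9 and Cxcl10, averaged 1.05 ± 0.69 CPM in day 21 KO and 0.236 ± 0.206 in day 21 WT, and was not called between them. Cxcr5, the receptor of Cxcl13, did not pass the filter.

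Of 9 further CXC ligands, 4 were tested. Cxcl11, another Cxcr3 ligand, averaged 6.79 ± 1.37 CPM in day 21 KO and 1.48 ± 0.269 in day 21 WT (log2FC 2.18, SE 0.662, adjusted p = 0.0204), a call lost without any 1 of the 3 WT libraries (adjusted p up to 0.0974). It rose at day 21 in both genotypes. Cxcl14 averaged 14.1 ± 3.02 CPM in day 35 KO and 3.35 ± 1.19 in day 35 WT (log2FC 2.07, SE 0.4, adjusted p = 0.00713), which was lost with day 35 WT 3 moved to KO (log2FC 1.70, adjusted p = 0.0821). It averaged 18.7 ± 5.52 CPM in naive old and 1.11 ± 1.04 in naive WT (log2FC 4.07, SE 0.463, adjusted p = 3.38e-06), and the difference was 5.0 without naive WT 3. Pf4, platelet factor 4, a ligand also abundant in border macrophages, fell in WT at day 21 (log2FC −4.84, SE 0.963, adjusted p = 0.000897), by −6.35 without day 21 WT 1 and −4.24 without day 21 WT 3. In that comparison 7 of 9 border macrophage markers were called lower (12% of genes), and their part in the Pf4 result was not tested. Cxcl3, Cxcl5, Cxcl15, Cxcl17 and Ppbp did not pass the filter.

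Some genes upstream of the interferon-induced ligands also rose at day 21. Of 10 interferon gamma signalling genes, 6 rose and 3 fell in KO at day 21 (22.5% of all genes tested rose and 22.7% fell), and 4 rose and 1 fell in WT (9.51% rose and 12% fell). Between KO and WT at day 21, 6 were higher and 1 lower in KO (9.18% of genes were higher and 9.86% lower), among them Irf1 (log2FC 0.84, SE 0.119, adjusted p = 1.98e-05). Ifng itself averaged 1.93 ± 0.595 CPM in day 21 KO and 0.0312 ± 0.054 in day 21 WT (adjusted p = 0.00658). At day 35 none of the 10 was called between KO and WT, where 2.62% of all genes were called either way.

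Of 10 type I interferon signalling genes, 7 rose at day 21 in KO (22.5% of genes rose) and 7 in WT (9.51%), and none fell. Between KO and WT at day 21, 4 were higher in KO (9.18% of genes), led by Stat2 (log2FC 1.10, SE 0.158, adjusted p = 2.34e-05) and Irf7 (log2FC 1.36, SE 0.255, adjusted p = 0.000604). At day 35 only Ifnb1, which encodes interferon beta, was called (2.62% of all genes called either way). It averaged 12.8 ± 1.87 CPM in day 35 KO against 3.54 ± 1.82 in day 35 WT (log2FC 1.86, SE 0.478, adjusted p = 0.0377). That call was lost without any of 7 of the 8 libraries (adjusted p up to 0.126). Of 14 genes of NF-kappaB and its inducers, 3 were higher in day 35 KO than in day 35 WT (1.79% of genes): Nfkbia (log2FC 0.96, SE 0.137, adjusted p = 0.000291), Tnfaip3 (log2FC 0.76, SE 0.182, adjusted p = 0.0294) and Tnf (log2FC 0.97, SE 0.254, adjusted p = 0.041). Nfkbia and Tnfaip3 encode inhibitors of NF-kappaB and Tnf one of its inducers. The Nfkbia call held in every alternative, while that of Tnfaip3 was lost without any of 6 of the 8 libraries (adjusted p up to 0.243, with day 35 WT 3 moved to KO) and that of Tnf without any of the 8 (adjusted p up to 0.144). At day 21, Il1b was higher (log2FC 1.63, SE 0.544, adjusted p = 0.0382) and Il6 lower (log2FC −0.98, SE 0.297, adjusted p = 0.0198) in KO, and none of the other 12 was called, while 19% of all genes were called either way. The Il1b call was lost without any of the 7 libraries (adjusted p up to 0.117) and the Il6 call without day 21 KO 4, WT 1 or WT 3 (adjusted p up to 0.0751). In naive old mice 6 of the 14 were higher than in naive WT (5.03% of genes) and none lower, among them Tnf (log2FC 1.72, SE 0.265, adjusted p = 0.000264) and Nfkbia (log2FC 0.72, SE 0.138, adjusted p = 0.00142). The tested genes of these lists had a median log2FC at day 21 between KO and WT of 0.74 for interferon gamma, 0.19 for type I interferon and 0.12 for NF-kappaB, against 0.002 for all genes tested.

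Likeness was measured as Pearson's r of log2 CPM over the 30 libraries, which share groups and cell composition, among 9568 genes of at least 5 CPM. Cxcl9 and Cxcl10 had r = 0.90 with each other. The genes most like Cxcl9 were Fgl2 (r = 0.973), Iigp1 (0.972) and Ifi204 (0.971), and those most like Cxcl10 were Ifit2 (0.982), H2-Q5 (0.966) and H2-Q4 (0.965), of which H2-Q4 and H2-Q5 belong to a multigene family whose reads may be split between copies. Cxcl16 was most like Il2rg (0.969), Rai14 (0.960) and Tmem106a (0.957), and had r = 0.87 with Cxcl9 and 0.79 with Cxcl10. Cxcl2 was most like Vim (0.959), Iqgap1 (0.953) and Emilin2 (0.952), and had r = 0.03 with Cxcl10 and 0.02 with Cxcl13. Cxcl13 had the loosest neighbours, Ly9 (0.870), Ildr2 (0.851) and Neurl1b (0.850).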

How the data were processed

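RNA of sorted microglia was made into libraries (SMARTer Stranded Total RNA-Seq Pico kit, per the labels' protocols) and sequenced. The authors deposited raw counts per Ensembl gene, made with CASAVA, bcl2fastq and STAR on GRCm38, per the submitters' processing notes. Versions, counter, annotation release and strand setting are absent from the labels and notes used here. The clinical EAE scores come from the authors' deposited sample table, per the file headers. Symbols and coordinates came from GENCODE M21, which gave symbols to 98.2% of the genes. Columns were joined to samples by plate well, with wells counted down each column. This is inferred: 30 of 30 titles then met their group, and 2 when wells were counted along rows. The other 2 of 32 count columns were not used.

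The filter filterByExpr (minimum count 10, total 15) left 13880 genes, scaled by TMM. One model with a mean per group (22 residual degrees of freedom) was fitted with edgeR 4.0.16 (glmQLFit, robust) in R 4.3.3, and 16 contrasts were tested by quasi-likelihood. Benjamini-Hochberg adjustment ran over all genes of a contrast, with a threshold of 0.05. The fit was tested on simulated data. Alternatives were DESeq2 1.42.0, RLE factors, no filter, the groups compared alone, the i5 index as a block (each group has at most 1 library per index), the library with conflicting labels moved to KO, and each library left out in turn.

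The chemokines, the gene lists and the markers were chosen with earlier results of these data known. Of each list, up to 4 genes with the lowest adjusted p per comparison were eligible to be named, of each marker list the 2 highest, and the 3 genes most like each chemokine by Pearson's r of log2 CPM (prior count 2). Cxcr3, Cxcr5, Adam17 and the untested ligands are named in addition as receptors, proteases or ligands of the lists. Promoter windows were RefSeq's for GRCm38.p6. Some genes of these lists are not reported here by name.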

Additional observations from a re-analysis of the deposited data

Results flagged for a closer look

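Within groups of 4 libraries, each chemokine was checked for a library far from the others by Dixon's test at the 95% level, which chance passes in about 1 of 20 groups. Cxcl13 in naive WT 3, at 2.54 CPM, stood apart from the other 3 naive WT libraries, at 0 to 0.294 CPM. Cxcl1 was at 0.735 CPM in naive WT 1 and at 0.143 CPM in day 35 WT 1, with the other 3 libraries of each group at 0, so these rest on 5 counts and 1 count.

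The day 21 EAE response differed between KO and WT for 2 chemokines in edgeR's test of the difference itself. For Cxcl13 the difference was −4.40 on the log2 scale (SE 1.06, adjusted p = 0.0131), with 20 counts in the naive WT group. For Cxcl2 it was 4.12 (SE 1.1, adjusted p = 0.0233).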

How the results depend on the processing

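Of 740 recomputed log2 fold changes of the chemokines, 689 kept their direction and their side of the threshold, 23 lost and 27 gained a call, and 1 reversed: Cxcl13 at day 21 in KO, −0.22 with all libraries and 0.54 without naive KO 3, uncalled in both (−0.55 to 0.54 over the libraries left out). The number of chemokines called moved as follows. With the groups compared alone it was 5 for day 21 KO against WT, 2 for day 35 KO against WT, 1 for WT day 35 against day 21, 4 for KO day 35 against day 21, 0 for day 35 old against WT and 2 for the genotype difference of the day 21 to 35 change. The calls over all genes moved too. In that order they were 4408, 559, 93, 4055, 0 and 1104, of 12324 to 13336 genes tested. The main fit called 2642, 363, 9, 3462, 1312 and 370 of 13880. With DESeq2 it was 1 for naive KO against WT, 2 for day 35 KO, 1 for WT day 35 against day 21, 2 for day 35 old and 1 for the age by day 35 difference. DESeq2 called 78, 723, 77, 1603 and 240 of all 13880 genes there, against 40, 363, 9, 1312 and 6 in the main fit. With no filter it was 0 for day 35 KO (143 of 30273 genes called) and 1 for old day 35 against naive (1771 of 30273). With RLE factors it was 2 for day 35 old (1317 of 13880 genes called) and with the i5 block 2 for day 35 KO (343 of 13880). With day 35 WT 3 moved to KO it was 0 for day 35 KO (170 of 13880). The cause of these moves was not tested. The fit of the groups alone has fewer samples and its own estimate of the spread. For day 35 old against WT that fit called 0 of all 12376 genes tested.

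Leaving out 1 library at a time gave 0 to 1 for naive KO against WT, 1 to 2 for day 21 KO, 0 to 1 for day 35 KO, 2 to 4 for naive old, 0 to 2 for day 35 old, 1 to 2 for old day 35 against naive and 1 to 2 for the genotype by day 21 difference. Over all genes, in that order, these fits called 11 to 69, 1358 to 2231, 53 to 453, 494 to 1409, 0 to 2044, 973 to 3231 and 514 to 1639. The other counts stayed within 1.5 times. No paired analysis was possible because the replicate numbers are accession order and tie no library to another by animal or sort; the i5 block groups libraries by sequencing index alone. Depth limits Cxcl1 (78 counts in all) and naive WT Cxcl13 (20 counts).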
